A study of Mus musculus with 16 samples.

Results

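The data describe 36 genes of cholesterol and fatty acid synthesis in mouse hair follicle stem cell (HFSC) organoids, of 22612 genes for which 1 transcript was kept. The genes were taken by name from a list of pathway enzymes and their regulators, which was drawn up with earlier results of these data known. A mean of at least 10 RNA-seq counts was asked of each gene, and 36 of 36 met it. In ribosome profiling (Ribo-seq), which sequences the stretch of message covered by a ribosome, 32 of the 36 reached a mean of 1 footprint and 15 reached a mean of 10. By role they were 8 enzymes of the mevalonate arm, 11 of the sterol arm, 7 genes of SREBP control, 2 other SREBP targets and 8 genes of fatty acid synthesis and desaturation.

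The cells came from 3D-3C organoids of C57BL/6J mice, an epidermal culture grown for 2 weeks in which HFSCs and their progeny coexist. They were sorted into integrin alpha6+ CD34- progenitors and alpha6+ CD34+ HFSCs, either from untreated cultures or from cultures given N1-acetylspermidine (N1-AcSpd), an acetylated polyamine, for the last 72 h. Each of the 4 groups held 2 biological replicates, replicate 1 from one mouse and replicate 2 from another, and each lysate gave both an RNA-seq and a Ribo-seq library. This gave 16 libraries with no genetic change in any group, and the labels give neither the dose of N1-AcSpd nor the age of the mice. All values come from cells cultured and then sorted, and 2 mice limit every test.

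RNA-seq totals on the kept transcripts were 21612795 to 31524062 counts, and Ribo-seq totals were only 34475 to 268052. CD34 message followed the sort, at 2.96 ± 0.863 CPM (counts scaled to library size with TMM factors) in untreated progenitors against 77.1 ± 13.7 CPM in untreated HFSCs (SD, n = 2). Krt5 and Krt14, keratins of basal keratinocytes, were abundant in all groups. The 2 treated HFSC RNA-seq libraries went against their replicate numbers. The difference between replicates correlated across genes at r = 0.35 to 0.67 among the other 3 groups, and at r = -0.38 to -0.63 between any of these and treated HFSCs. Within a group, the same difference in RNA-seq and in Ribo-seq of the same lysates correlated at 0.13 to 0.29 in 3 groups and at -0.23 in treated HFSCs. The tests below do not use the replicate number, so this does not touch them unless a block by mouse is named. Values given with 1 mouse left out do use that number, in RNA-seq and in translational efficiency. Genes within a sample are not independent, and no test was made of these correlations.

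Cells build cholesterol from acetyl-CoA through mevalonate, squalene and lanosterol, and build fatty acids from the same precursor. Both routes answer to the sterol regulatory element binding proteins (SREBPs), which are made as membrane precursors, escorted from the endoplasmic reticulum to the Golgi by Scap, cut there by the proteases encoded by Mbtps1 and Mbtps2, and held back by the Insig proteins when sterols are plentiful. In skin these lipids feed membranes of growing keratinocytes, the sebum of sebaceous glands and the barrier of the outer epidermis.

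Promoters of SREBP targets often carry a sterol regulatory element close to CCAAT boxes, which are bound by the factor NF-Y, and the members were compared on this point. RefSeq promoter sequences of GRCm38.p6, from 250 bases before to 50 bases after the start, were at hand for 29 of the 36 genes. CCAAT was found on either strand in 21 of the 29, against 41.1% of 27025 gene symbols in the same table and 37.4% of 32851 promoters. Among the genes whose message rose with N1-AcSpd (below) it was found in 11 of 12, and among the other members in 10 of 17. GGGCGG, the core of a GC box, was found in 22 of the 29, against 38.2% of symbols. By the same split it was found in 10 of 12 and in 12 of 17. TCACNCCAC, 1 form of the sterol regulatory element, was found in Hmgcs1 alone of the 29, at position -137 from the start, against 1.44% of symbols. No match of 1 motif overlapped a match of another in the 5 promoters shown, a match is a description of the letters and not a bound site, and other forms of the element were not searched. The 250 bases before the start are shown for the 4 genes with the smallest p in the treatment comparison that are in the promoter table, and for Hmgcs1, since it holds the sterol element. Capitals mark CCAAT in either orientation, and TCACNCCAC in Hmgcs1. Insig1 (chr5:28071162-28071411, plus strand) and Lss (chr10:76531355-76531604, plus strand) read:
Insig1: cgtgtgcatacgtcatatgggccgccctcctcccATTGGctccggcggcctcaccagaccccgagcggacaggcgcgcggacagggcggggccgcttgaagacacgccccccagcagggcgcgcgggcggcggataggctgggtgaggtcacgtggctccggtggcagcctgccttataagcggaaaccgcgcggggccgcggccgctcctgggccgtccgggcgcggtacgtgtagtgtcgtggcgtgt
Lss: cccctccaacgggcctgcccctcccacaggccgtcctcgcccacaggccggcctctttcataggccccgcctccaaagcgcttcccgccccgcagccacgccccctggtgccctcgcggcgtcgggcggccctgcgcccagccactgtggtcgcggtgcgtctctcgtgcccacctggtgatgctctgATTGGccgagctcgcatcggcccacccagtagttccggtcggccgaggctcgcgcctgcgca
Fasn (chr11:120824548-120824797, minus strand) and Sc5d (chr9:42264301-42264550, minus strand) read, on the strand of the gene:
Fasn: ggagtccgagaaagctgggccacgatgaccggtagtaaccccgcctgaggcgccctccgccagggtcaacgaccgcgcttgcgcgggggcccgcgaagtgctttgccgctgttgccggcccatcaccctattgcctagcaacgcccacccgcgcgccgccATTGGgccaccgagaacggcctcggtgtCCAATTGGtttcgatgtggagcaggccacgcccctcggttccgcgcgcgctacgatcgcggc
Sc5d: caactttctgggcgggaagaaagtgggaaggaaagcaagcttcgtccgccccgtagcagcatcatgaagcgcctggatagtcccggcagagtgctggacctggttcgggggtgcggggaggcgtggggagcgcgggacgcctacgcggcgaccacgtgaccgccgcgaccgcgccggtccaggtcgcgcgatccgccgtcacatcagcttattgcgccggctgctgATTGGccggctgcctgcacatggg
Hmgcs1 (chr13:119690101-119690350, plus strand) reads:
Hmgcs1: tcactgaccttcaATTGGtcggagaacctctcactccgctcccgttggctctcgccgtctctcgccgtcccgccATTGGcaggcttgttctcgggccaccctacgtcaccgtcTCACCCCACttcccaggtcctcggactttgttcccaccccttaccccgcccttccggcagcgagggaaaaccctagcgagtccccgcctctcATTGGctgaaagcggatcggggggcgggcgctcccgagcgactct
Each of the 5 holds at least 1 CCAAT, and Fasn and Hmgcs1 hold more than 1. In Fasn a pair of them, on opposite strands, overlap in the letters CCAATTGG.

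The first comparison asked what N1-AcSpd did to the messages of the pathway. Averaged over both cell types, 16 of the 36 genes rose and none fell (edgeR quasi-likelihood test, Benjamini-Hochberg adjusted p under 0.05 over 14224 genes). Of all genes tested, 1.2% rose and 0.443% fell. The 16 were Mvd in the mevalonate arm, Fdft1, Sqle, Lss, Cyp51, Msmo1, Nsdhl, Hsd17b7, Sc5d and Dhcr7 in the sterol arm, Insig1 in SREBP control, and Scd1, Scd2, Fasn, Acly and Elovl6 in the fatty acid arm. The log2 fold change was positive for 33 of 36, with a median of 0.50 against -0.01 over all genes. Together the 36 genes took 0.313 ± 0.0152% of RNA-seq counts in untreated progenitors and 0.397 ± 0.0400% in treated ones, and 0.289 ± 0.0189% and 0.362 ± 0.00886% in untreated and treated HFSCs (SD, n = 2).

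**Figure D1:**
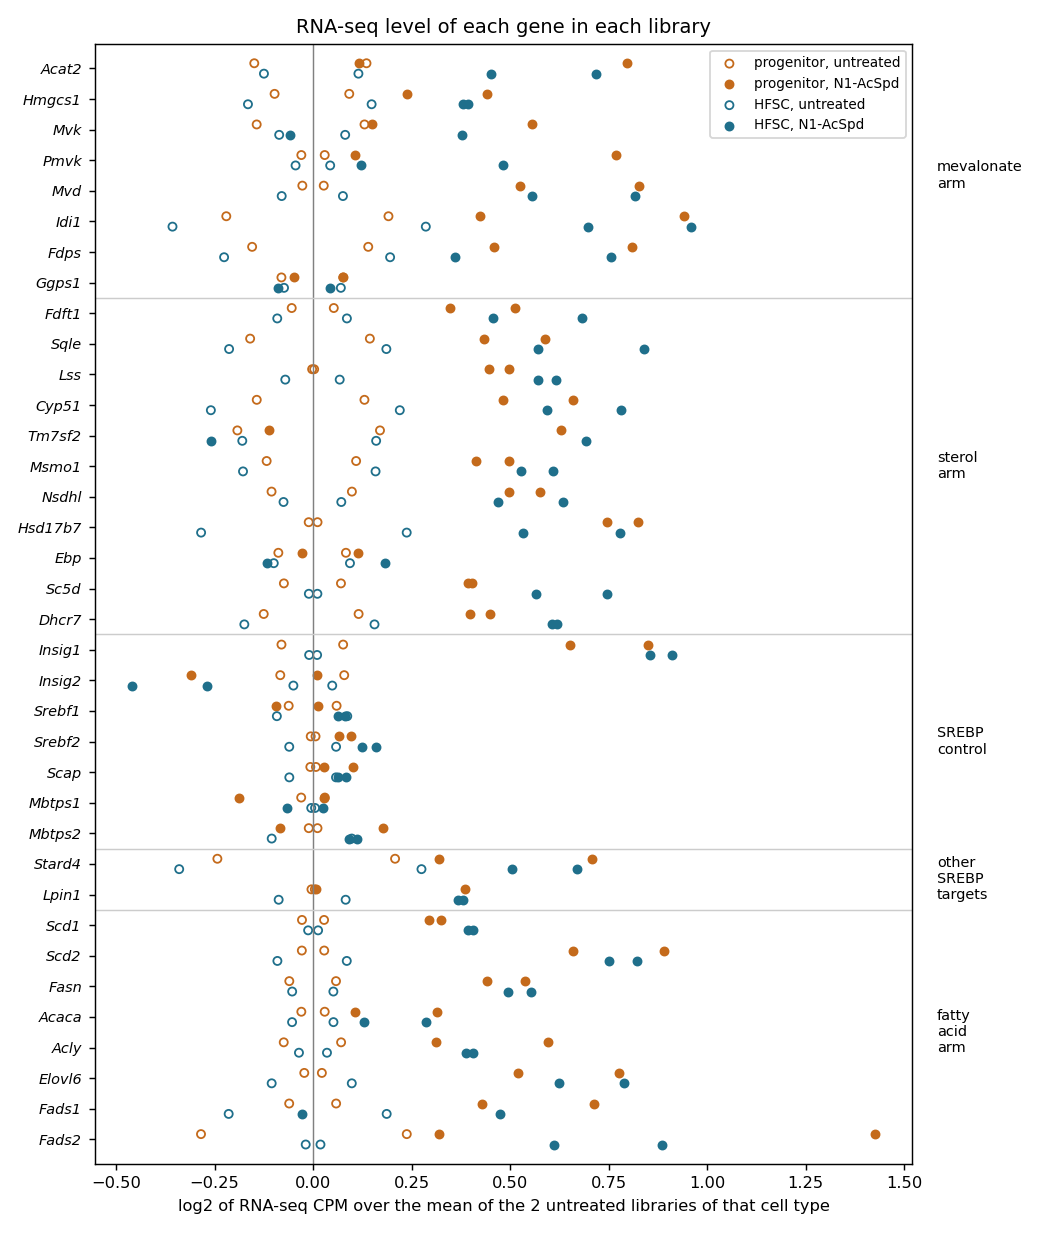
RNA-seq level of each of the 36 genes in each library, as log2 of CPM over the mean of the 2 untreated libraries of the same cell type; open points are untreated and filled points N1-AcSpd-treated libraries, orange progenitors and blue HFSCs. Filled points lie to the right of the open ones in both cell types for 26 of the 36 genes. Srebf2 and Scap are among the 26, by small steps, and the points of Srebf1, Srebf2, Scap and Mbtps1 all stay close to 0.

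In 21 of the 36 genes all 4 treated libraries lay above all 4 untreated ones, as did 3.95% of genes tested. Within each cell type taken alone, both treated libraries lay above both untreated ones in 26 of 36, against 8.65% of genes. The calls were not firm: leaving out 1 library at a time left 2 to 10 genes past the threshold (0.239% to 0.781% of all genes rose there). Insig1 and Scd2 were the 2 left when 1 untreated progenitor library, of either replicate, was left out. Whether the 36 genes moved as a group was not tested. Those 2 genes also passed in each of the other alternatives run. With the mouse as a block 8 of the 16 passed, where 0.675% of all genes rose, and with replicate numbers swapped between those 2 treated HFSC libraries, an alternative added after the data were seen, 23 genes passed, where 4.37% of all genes rose.

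Within the SREBP system the gene that moved was Insig1, which encodes the sterol-sensing anchor that retains Scap in the endoplasmic reticulum and is itself a classic SREBP target. It measured 25.4 and 22.8 CPM in the 2 untreated progenitor libraries and 43.4 and 37.8 CPM in the 2 treated ones. In HFSCs it measured 18.2 and 17.9 CPM untreated and 34.0 and 32.7 CPM treated. No treated library overlapped an untreated one, and the log2 fold change was 0.82 ± 0.08 (SE; 1.76-fold, adjusted p = 0.0075), the smallest p of the 36. The related Insig2 showed a negative value, 21.6 to 28.3 CPM over the 4 treated and 26.5 to 30.8 CPM over the 4 untreated libraries (log2 fold change -0.25 ± 0.10, adjusted p = 0.277), which did not pass.

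The SREBP genes themselves were abundant and did not pass. Srebf1, whose product favours fatty acid genes, stood at 188 and 205 CPM in untreated and 184 and 198 CPM in treated progenitors, and at 178 and 202 CPM in untreated and 198 and 201 CPM in treated HFSCs. Its libraries overlapped throughout (log2 fold change 0.02 ± 0.07, adjusted p = 0.944). Srebf2, whose product favours cholesterol genes, stood at 341, 338, 356 and 363 CPM in progenitors and 343, 316, 359 and 368 CPM in HFSCs, untreated before treated, with a log2 fold change of 0.11 ± 0.07 (adjusted p = 0.469). Its 4 treated libraries lay above its 4 untreated ones, but by a small step. Scap, at 287 to 318 CPM untreated and 313 to 340 CPM treated, gave 0.07 ± 0.07, Mbtps1 -0.05 ± 0.07 and Mbtps2 0.08 ± 0.09 on the log2 scale, the smallest adjusted p of the 3 being 0.683. So 1 of 7 genes of SREBP control passed.

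**Figure D2:**
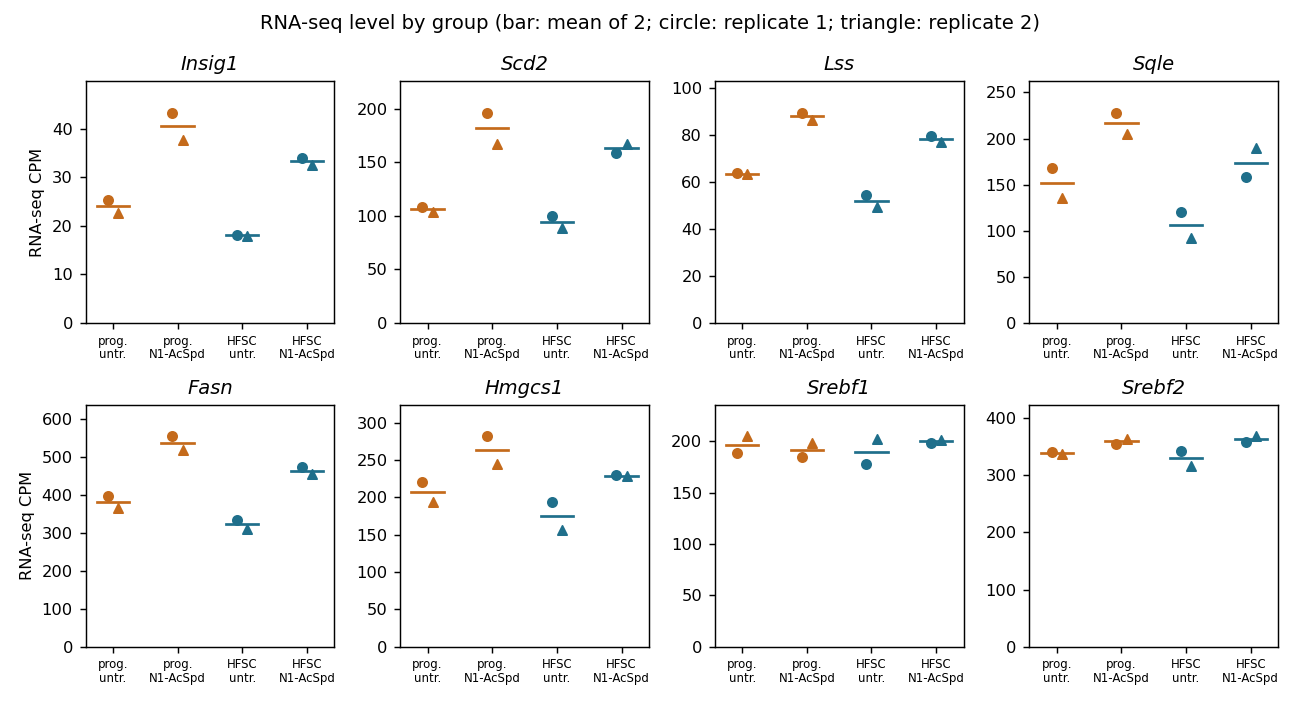
RNA-seq CPM of 8 genes in the 4 groups, with 1 point per library (circle replicate 1, triangle replicate 2), the mean of 2 as a bar, progenitors in orange and HFSCs in blue. Insig1, Scd2, Lss, Sqle and Fasn sit higher in both treated groups than in the untreated group of the same cell type, and Srebf1 and Srebf2 differ little between groups.

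In the sterol arm, which turns farnesyl diphosphate into cholesterol, 9 of 11 genes rose, with a median log2 fold change of 0.53. Lss, which closes squalene epoxide into lanosterol, gave the tightest values, 63.7 and 63.4 CPM in untreated and 89.6 and 86.6 CPM in treated progenitors, and 54.5 and 49.5 CPM in untreated and 79.7 and 77.2 CPM in treated HFSCs. The 4 treated libraries lay above the 4 untreated ones (log2 fold change 0.53 ± 0.07, adjusted p = 0.0115). Sqle, the squalene epoxidase and a rate-controlling step, measured 168 and 136 CPM untreated against 228 and 205 CPM treated in progenitors, and 121 and 91.6 CPM against 158 and 190 CPM in HFSCs. Here the treated HFSC value of 158 fell below the untreated progenitor value of 168, though the groups of 1 cell type did not overlap (0.61 ± 0.12, adjusted p = 0.0451).

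Hsd17b7, a keto-reductase of the pathway, had the largest log2 fold change of the arm, 0.72 ± 0.12 (adjusted p = 0.0294), from 21.9 and 22.3 CPM to 39.1 and 37.1 CPM in progenitors and from 18.5 and 12.9 CPM to 22.7 and 26.9 CPM in HFSCs. Fdft1, the squalene synthase, went from 105 and 97.1 CPM to 144 and 128 CPM in progenitors, and from 89.9 and 79.5 CPM to 116 and 136 CPM in HFSCs (0.50 ± 0.09, adjusted p = 0.0295). Cyp51, the lanosterol demethylase, went from 97.2 and 80.4 CPM to 140 and 124 CPM and from 79.3 and 56.9 CPM to 103 and 117 CPM (0.63 ± 0.12, adjusted p = 0.0441). In both genes all 4 treated libraries lay above all 4 untreated ones.

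The later enzymes moved by similar amounts. Msmo1 (methyl sterol oxidase), Nsdhl (sterol dehydrogenase), Sc5d (sterol desaturase) and Dhcr7 (the reductase of the last step) rose by 0.51 ± 0.09, 0.55 ± 0.09, 0.53 ± 0.08 and 0.52 ± 0.10 on the log2 scale, with adjusted p from 0.0166 for Sc5d to 0.0405 for Msmo1. Msmo1 measured 96.7 and 82.6 CPM in untreated and 119 and 126 CPM in treated progenitors, and 78.0 and 61.8 CPM against 101 and 107 CPM in HFSCs. Nsdhl measured 35.4 and 30.8 CPM against 46.7 and 49.4 CPM in progenitors and 31.4 and 28.3 CPM against 41.3 and 46.3 CPM in HFSCs. In both genes, and in the 2 that follow, every treated library exceeded every untreated one. Dhcr7 measured 39.8 and 47.0 CPM against 57.2 and 59.2 CPM in progenitors, and 34.8 and 43.7 CPM against 60.2 and 59.8 CPM in HFSCs. Sc5d measured 45.96 and 41.6 CPM in untreated and 57.8 and 57.4 CPM in treated progenitors, and 33.4 and 33.9 CPM in untreated and 49.8 and 56.4 CPM in treated HFSCs. The 2 genes of the arm that did not pass were the sterol isomerase gene Ebp, at 92.2 to 118 CPM untreated and 96.0 to 126 CPM treated (0.04 ± 0.09, adjusted p = 0.874), and the sterol reductase gene Tm7sf2, the lowest of the arm, at 5.68 to 7.80 CPM untreated and 5.37 to 10.7 CPM treated (0.30 ± 0.25, adjusted p = 0.619). The 4 treated and 4 untreated libraries of Ebp overlapped throughout.

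In the mevalonate arm, which leads from acetyl-CoA to farnesyl diphosphate, 7 of 8 values were positive (median 0.47) but only Mvd passed. Mvd, the mevalonate diphosphate decarboxylase, measured 18.2 and 18.9 CPM in untreated and 32.9 and 26.7 CPM in treated progenitors, and 15.3 and 13.7 CPM against 21.3 and 25.6 CPM in HFSCs (0.69 ± 0.11, adjusted p = 0.0221). Hmgcs1, the HMG-CoA synthase, measured 221 and 194 CPM against 282 and 245 CPM in progenitors and 194 and 156 CPM against 230 and 228 CPM in HFSCs. Its treated libraries lay above its untreated ones, by a smaller step that did not pass (0.36 ± 0.09, adjusted p = 0.107). Idi1 (isopentenyl diphosphate isomerase) and Fdps (farnesyl diphosphate synthase) had larger values with wider errors, 0.77 ± 0.18 (adjusted p = 0.0805) and 0.61 ± 0.14 (adjusted p = 0.0785). Acat2 (acetoacetyl-CoA thiolase), Mvk and Pmvk (the mevalonate pathway kinases) gave 0.54 ± 0.16, 0.27 ± 0.13 and 0.40 ± 0.15, with adjusted p of 0.143 and above. Ggps1, which branches off toward protein prenylation, lay at 19.2 to 21.7 CPM in all 8 libraries (-0.00 ± 0.09, adjusted p = 0.992).

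In the fatty acid arm 5 of 8 genes rose and 8 of 8 values were positive (median 0.47). Scd2, a desaturase that puts the double bond into stearate and palmitate, led with 108 and 104 CPM in untreated and 196 and 167 CPM in treated progenitors, and 100 and 88.6 CPM in untreated and 159 and 167 CPM in treated HFSCs (0.78 ± 0.08, 1.72-fold, adjusted p = 0.0075). Its treated libraries all lay above its untreated ones. Scd1, a second desaturase, moved less, from 49.6 and 51.5 CPM to 63.3 and 62.0 CPM in progenitors and from 42.9 and 43.7 CPM to 57.3 and 56.9 CPM in HFSCs (0.35 ± 0.07, adjusted p = 0.0405).

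Fasn, the fatty acid synthase and the most abundant message of the arm, measured 398 and 366 CPM untreated and 554 and 519 CPM treated in progenitors, and 334 and 311 CPM untreated and 472 and 454 CPM treated in HFSCs (0.51 ± 0.07, adjusted p = 0.015). Acly, the ATP citrate lyase that supplies cytosolic acetyl-CoA to both arms, went from 171 and 155 CPM to 247 and 203 CPM and from 138 and 131 CPM to 176 and 178 CPM (0.43 ± 0.08, adjusted p = 0.0462). Elovl6, which lengthens palmitate, was low, at 7.38 and 7.62 CPM untreated and 12.8 and 10.8 CPM treated in progenitors, and 7.93 and 6.89 CPM untreated and 11.4 and 12.8 CPM treated in HFSCs, and rose as well (0.68 ± 0.12, adjusted p = 0.0335). Acaca (acetyl-CoA carboxylase) gave 0.21 ± 0.08 and the polyunsaturated fatty acid desaturases Fads1 and Fads2 gave 0.41 ± 0.16 and 0.87 ± 0.23, none past the threshold. The 2 treated progenitor libraries of Fads2 stood at 32.8 and 15.2 CPM, far apart. The remaining SREBP targets, Stard4 (a sterol carrier) and Lpin1 (a phosphatidate phosphatase), gave 0.56 ± 0.17 and 0.29 ± 0.11, which did not pass.

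The values were of similar size in both cell types. The log2 fold changes were positive in both for 32 of 36 genes, against 34.2% of all genes. The 2 comparisons share no library, but both cell types were sorted from cultures of the same 2 mice, so the comparisons are not independent. Their medians were 0.46 in progenitors and 0.54 in HFSCs. In progenitors only Scd2 passed (0.78 ± 0.11, adjusted p = 0.0481), where 0.218% of genes rose. That call was lost with the block by mouse, without the treated HFSC libraries in the fit and whenever 1 library was left out. With the swapped numbers the block gave 16 genes, where 1.69% of all genes rose. In HFSCs no gene of the 14224 passed (0%), although 1100 had an unadjusted p under 0.05, and DESeq2 called 12 of the 36 there, all higher, against 0.703% of all genes. The difference between the responses of the 2 cell types passed for no member and no gene in RNA-seq (118 genes at an unadjusted p under 0.05, no member among them).

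Other lists of lipid genes were also compared. These lists were chosen with earlier results of these data known, and not passing does not show that a gene stayed the same. They therefore cannot mark where the change ends. Of 28 further enzymes of lipid synthesis none passed (median 0.12, 11 higher and 1 lower at an unadjusted p under 0.05). The share of all genes at such a p is not given, so these counts cannot be set against the background. The summed level of these enzymes was 1799 to 1812 CPM in untreated and 1859 to 1978 CPM in treated progenitors. In HFSCs it was 1756 to 1820 CPM untreated and 1832 to 1994 CPM treated. Of 12 genes of sterol storage, export and LXR response none passed (median -0.05), nor did any of 7 genes for degradation of sterol control proteins (median -0.01). Of 15 genes of peroxisomal and mitochondrial fatty acid oxidation none passed, and 15 of 15 values were negative by a small amount (median -0.13, range -0.40 to -0.00). The summed level of the oxidation genes was 775 to 786 CPM in untreated and 675 to 734 CPM in treated progenitors, and 841 to 879 CPM in untreated and 746 to 822 CPM in treated HFSCs.

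**Figure D3:**
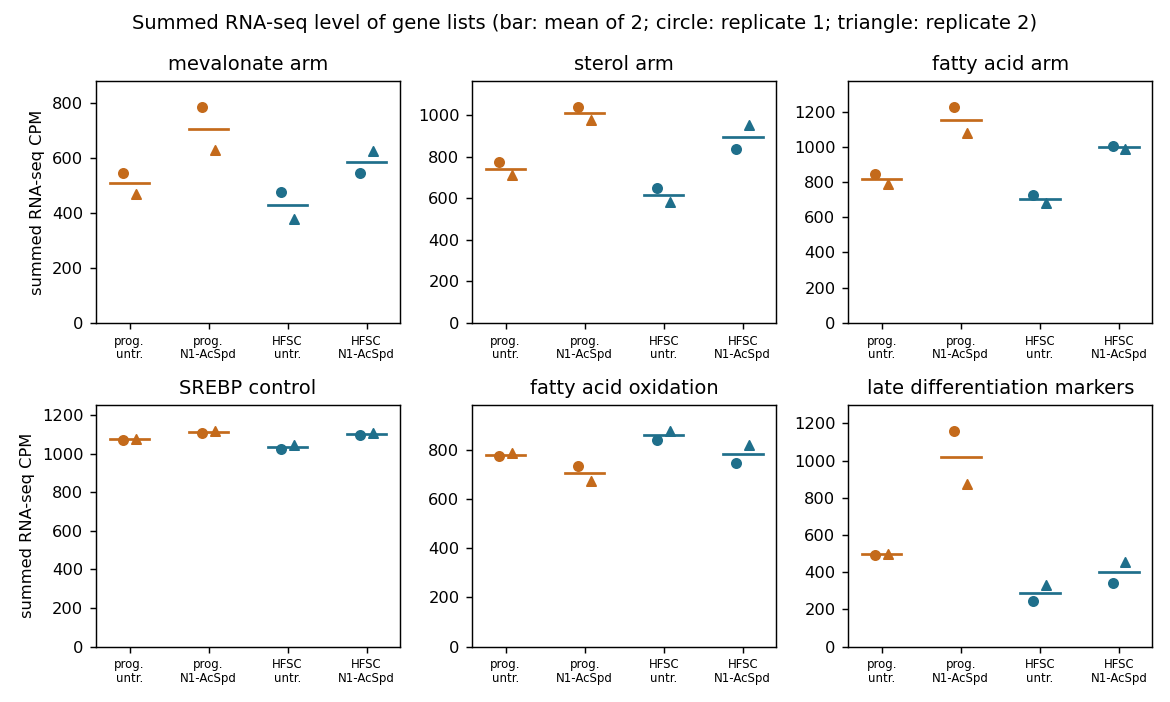
Summed RNA-seq CPM of 4 role lists of the 36 genes, of fatty acid oxidation genes and of late differentiation markers, by group, with 1 point per library (circle replicate 1, triangle replicate 2) and the mean of 2 as a bar. The 3 synthesis arms are higher in the treated groups, SREBP control differs little, oxidation genes are slightly lower, and differentiation markers are highest in treated progenitors.

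Markers of late epidermal differentiation moved with the treatment too. Of 12 such genes (Krt1, Ivl, Cdsn and others) 5 rose with N1-AcSpd (median 1.26 on the log2 scale over the 12), and 9 of 12 were lower in HFSCs. Their summed level was 495 to 498 CPM in untreated and 873 to 1161 CPM in treated progenitors, and 244 to 332 CPM in untreated and 343 to 456 CPM in treated HFSCs. The summed sterol arm shared both directions, at 711 to 773 CPM in untreated and 976 to 1039 CPM in treated progenitors. In HFSCs it stood at 582 to 651 CPM untreated and 839 to 952 CPM treated. The summed fatty acid arm shared them too, at 788 to 845 CPM in untreated and 1080 to 1227 CPM in treated progenitors. Its HFSC values were 684 to 728 CPM untreated and 988 to 1008 CPM treated. The marker sum and both arm sums were thus higher with treatment in each cell type and lower in HFSCs in each treatment. The mevalonate arm was higher with treatment too, while its untreated HFSC (380 to 475 CPM) and progenitor (470 to 545 CPM) libraries overlapped. Of 5 HFSC markers 1 passed, the keratin gene Krt15, which fell by 0.99 on the log2 scale with N1-AcSpd (adjusted p = 0.00446), while Cd34 gave 0.21, Nfatc1 -0.12, Sox9 -0.44 and Lhx2 -0.12 without passing, and 0 of 8 mitosis markers passed (median -0.20). The part of these shifts in the lipid gene result was not tested. In bulk libraries fewer cells of a type and less RNA per cell cannot be told apart.

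Markers of other cell types that make or store lipid were near 0, and those of sebocytes were higher in treated libraries. The 9 sebocyte markers summed to 0.964 to 1.94 CPM in untreated and 2.53 to 3.28 CPM in treated libraries, with Awat1 at 0 in all 8. Of the 5 that could be tested none passed. The 6 adipocyte markers summed to 0.0311 to 1.45 CPM, with Cfd and Retn at 0. The sums of fibroblast, melanocyte, immune and endothelial markers each stayed at or below 13.6 CPM. The 36 genes together summed to 2713 to 4200 CPM.

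The second comparison asked how HFSCs and progenitors differ. Here the synthesis genes were mostly lower in value in HFSCs, but few passed: averaged over treatments 30 of 36 values were negative (median -0.18 against -0.01 over all genes), 1 gene was called lower and 1 higher, where 1.8% of all genes were called lower and 2.11% higher, so the share of members called was near the background. In 14 of 36 genes both HFSC libraries lay below both progenitor libraries in each treatment, against 10.1% of genes, but all 4 HFSC libraries lay below all 4 progenitor ones only in Mbtps2, against 4.42% of genes. No member passed in untreated cells (0.148% of genes called) or in treated cells (0.745%).

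The 2 genes that passed went opposite ways. Hsd17b7 was lower in HFSCs (-0.56 ± 0.12, adjusted p = 0.0437), at 15.7 ± 3.96 against 22.1 ± 0.243 CPM untreated and 24.8 ± 2.98 against 38.1 ± 1.44 CPM treated (SD, n = 2). Fads1, which introduces a double bond in making arachidonate, was higher in HFSCs (0.73 ± 0.16, adjusted p = 0.0402), at 11.7 and 15.5 CPM against 7.01 and 7.62 CPM untreated, and 18.9 and 13.3 CPM against 12.0 and 9.84 CPM treated. Fads2, which acts before it, had a negative value in the same comparison (-0.51 ± 0.23, adjusted p = 0.288). Both calls were lost with the block by mouse, and leaving out 1 library at a time left 0 to 2 calls, while the block with swapped numbers gave 14 genes, 13 of them lower, where 6.14% of all genes were lower. Insig1 (-0.35 ± 0.08, adjusted p = 0.059), Acly (-0.31 ± 0.08, adjusted p = 0.0799) and Sqle (-0.42 ± 0.12, adjusted p = 0.0958) came next by p and did not pass.

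**Figure D4:**
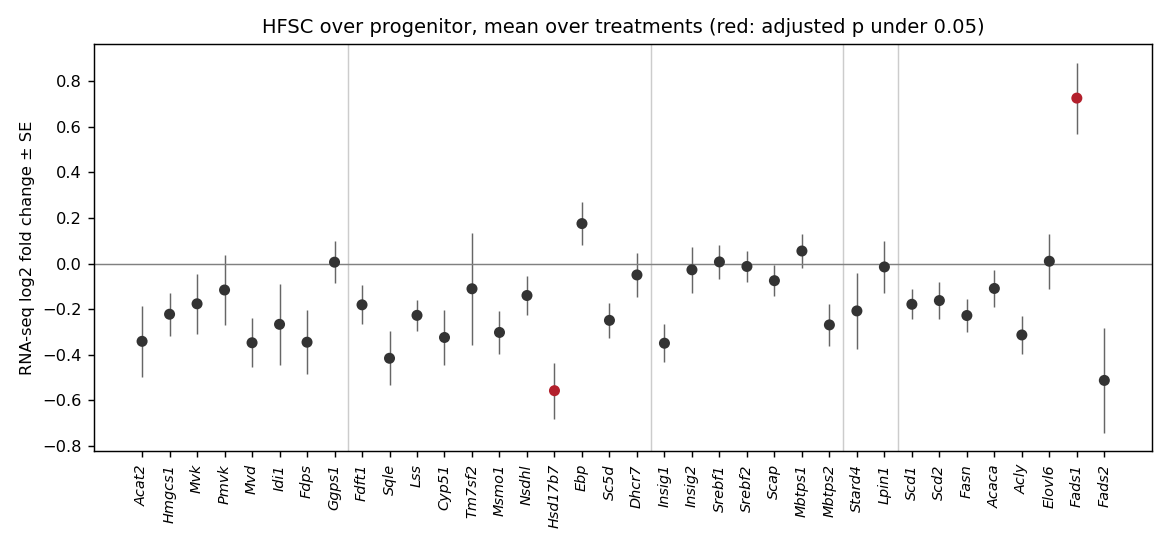
RNA-seq log2 fold change of HFSCs over progenitors, averaged over treatments, for the 36 genes in order of role, with the standard error as bars. Of the 36 values 30 lie below 0, and the 2 past the threshold, in red, are Hsd17b7 below and Fads1 above 0.

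Footprints were then examined, to ask whether the messages were also read more. At the depth of these libraries no member passed in any of the 7 Ribo-seq comparisons. Averaged over cell types, 0.0829% of genes passed for N1-AcSpd and 0.154% for HFSCs against progenitors. For N1-AcSpd 25 of 32 values were positive (median 0.57 against -0.04 over all genes, and 0.29 without the libraries of replicate 1 and 1.02 without those of replicate 2), and at an unadjusted p under 0.05 5 were higher and 1 lower, where 4.85% of genes had such a p in either direction. The 5 were Fdft1, Cyp51, Hsd17b7 and Tm7sf2 of the sterol arm and Acly, and the 1 was Mbtps1. The 36 genes took 0.366 ± 0.0532% of footprints in untreated and 0.456 ± 0.0584% in treated progenitors, and 0.284 ± 0.0173% against 0.419 ± 0.0344% in HFSCs (SD, n = 2).

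Cyp51 footprints numbered 3 and 45 in untreated and 19 and 15 in treated progenitor libraries, and 6 and 20 in untreated and 40 and 18 in treated HFSC libraries. Scaled to depth these were 76.1, 183, 237 and 249 CPM and 106, 160, 280 and 302 CPM, so the 4 treated libraries lay above the 4 untreated ones. Only Cyp51 and Lpin1 had this pattern in Ribo-seq, against 1.49% of genes (log2 fold change of Cyp51 0.88 ± 0.40, adjusted p = 0.941). Fdft1 gave 1.05 ± 0.47, Acly 0.95 ± 0.39 and Hsd17b7 1.43 ± 0.58, with adjusted p from 0.906 to 0.941. Acly CPM in Ribo-seq were 127 and 215 untreated and 349 and 166 treated in progenitors, and 106 and 120 untreated and 259 and 369 treated in HFSCs, so its progenitor libraries overlapped and its HFSC libraries did not. Tm7sf2 had 0 footprints in the 4 untreated and 8 in the 4 treated libraries, 2 of them in progenitors and 6 in HFSCs. With a floor of 3 counts for the untreated group the ratio was 3.64-fold. The counting error of the 8 is not in that ratio, so it is no lower limit. With Tm7sf2 at that ratio the median of the members stayed at 0.57.

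**Figure D5:**
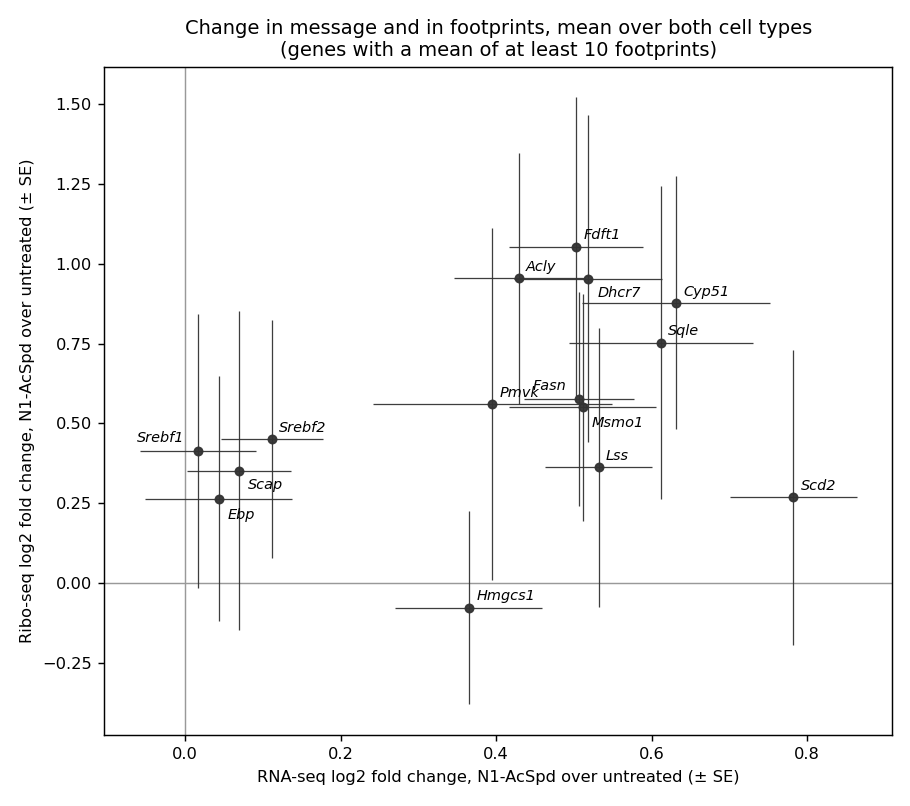
Log2 fold change of N1-AcSpd over untreated in Ribo-seq (vertical) against RNA-seq (horizontal), averaged over both cell types, for the 15 genes that averaged 10 or more footprints; bars are standard errors. The vertical bars are wider than the horizontal ones, and 14 of the 15 genes lie above 0 in Ribo-seq, Hmgcs1 being the exception.

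The better covered genes show how wide the errors were. Fasn, with 11 to 65 footprints a library, gave 0.58 ± 0.33 in Ribo-seq against 0.51 in RNA-seq, and Lss, with 7 to 33, gave 0.36 ± 0.44 against 0.53. Insig1, the leading message, had 0 to 3 footprints a library and could not be followed, nor could Idi1, Ggps1 and Elovl6. Scd2 footprints in progenitors stood at 152 to 158 CPM untreated and 112 to 116 CPM treated, against the direction of its message. In HFSCs its libraries overlapped, at 17.6 to 144 CPM untreated and 101 to 252 CPM treated. In progenitors 9 of 32 members had both treated Ribo-seq libraries above both untreated ones, and 2, Scd2 and Fads2, below. Of 8440 genes 1185 lay above and 1292 below. Hmgcs1 carried the most footprints, 26 to 156 a library, and its values did not move the way its message did: 659 and 633 CPM against 649 and 630 CPM in progenitors, and 458 and 489 CPM against 357 and 520 CPM in HFSCs, untreated before treated (-0.08 ± 0.30).

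Translational efficiency, taken as the change in footprints minus the change in message in 1 model over both assays, passed for no member and no gene in any comparison. For N1-AcSpd 2 members had an unadjusted p under 0.05, Tm7sf2 upward and Mbtps1 downward, where 7.35% of genes did (620 genes), so the members' share was no higher than the background. Hmgcs1 was the next named gene by p, at -0.47 ± 0.23 (adjusted p = 0.679 by edgeR's quasi-likelihood test). Between HFSCs and progenitors 2 members had such a p, Srebf2 (-0.80 ± 0.31, adjusted p = 0.793) and Mbtps1, both downward, where 6.01% of genes did (507 genes). Srebf2 footprints were 16 and 50 in untreated and 27 and 29 in treated progenitors, and 8 and 21 in untreated and 37 and 7 in treated HFSCs. In footprints alone, Hsd17b7, Srebf2 (-0.91 ± 0.37), Scap (-0.98 ± 0.50) and Mbtps1 were lower in HFSCs at an unadjusted p under 0.05, 4 of 32 members against 2.03% of genes, and none passed once adjusted (adjusted p of 0.966 and above). The Scap value turned to 0.13 without the libraries of replicate 1. The Mbtps1 values rest on 0 to 13 footprints a library.

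How well a message can be counted differs among the 36 genes. Per kilobase of kept transcript, the mean RNA-seq level over 8 libraries ran from 1.63 CPM per kb for Elovl6 to 151 CPM per kb for Fdps, and Scap (74.7), Srebf2 (68.6) and Hmgcs1 (67.4) came next below Fdps on that scale. Repeats were sought in stretches near the length of a footprint, over the whole kept transcript with its untranslated ends. The shares below are thus a rough guide for either assay. In 9 of the 36, more than 10% of the 28-base stretches of the kept transcript occur at more than 1 place in the GRCm38.p6 genome. They were Fdps (81.7%), Idi1 (80.2%), Acaca (66.9%), Insig1 (47.6%), Acat2 (46.4%), Fdft1 (22.5%), Ggps1 (22.5%), Elovl6 (15.7%) and Hmgcs1 (10.6%), so the counts of these genes are uncertain to the extent that reads were shared with or lost to the copies. Fdps had 0 to 9 footprints a library although its message stood at 113 to 286 CPM. For the Scd1 and Scd2 pair the shares were 8.72% and 6.47%. Lss, Fasn, Sqle, Acly, Mvd and Nsdhl, all called in the treatment comparison, had shares of at most 0.259%.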

How the data were processed

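RNA-seq and Ribo-seq were compared in 16 libraries, 2 per group and assay. The authors trimmed adapters, removed rRNA and tRNA reads and aligned with STAR to mm10; the submitters' processing notes name STAR 2.7.3a, Bowtie 1.2.3, featureCounts and GRCm38.p5. They deposited raw counts per transcript, and how reads with several places and strand were counted is not given in the sources used here. The deposited tables of the authors' own comparisons repeat these counts beside fold changes and p-values. From 1 of them the gene names of the transcripts were taken and its counts were compared with the count tables, and the fold changes and p-values were not used.

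For each gene the transcript with the most Ribo-seq counts over 8 libraries was kept. Genes averaging 1 count or more were fitted with edgeR 4.0.16 (R 4.3.3) by the quasi-likelihood test with TMM scaling, the 4 groups of an assay together, and p-values were adjusted by Benjamini-Hochberg over all genes at 0.05. Translational efficiency was the assay by group interaction over both assays. Log2 fold changes are given with their standard error. Alternatives were DESeq2 1.42.0, other scaling, filters and transcripts, a block by mouse and libraries left out. Scripts were tested on simulated data.

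The labels pair replicates by mouse. Deviations correlated between same-numbered RNA-seq libraries at 0.35 to 0.67 in 3 groups and at -0.38 to -0.63 with treated HFSCs, and between Ribo-seq libraries at 0.02 to 0.11. Replicate libraries differed by more than sampling noise. Intervals of PCR-amplified reads and the floor of 3 counts cover counting error only.

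The 36 genes and all lists were chosen with earlier results of these data known. Genes were named if past the threshold, among the smallest p of a comparison, or one of 8 entry, control and branch genes (Hmgcs1, Sqle, Insig1, Srebf1, Srebf2, Fasn, Scd1 and Scd2). The others named, such as Mbtps1, Mbtps2, Tm7sf2, Lpin1, Ebp and Fads2, were chosen after their values were seen.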

Additional observations from a re-analysis of the deposited data

How the results depend on the processing

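For N1-AcSpd averaged over cell types, the 16 calls in RNA-seq became 8 with a replicate block by mouse, 10 with counts summed over transcripts and 2 to 10 with 1 library left out; DESeq2 gave 22 and no minimum count 19. The block with exchanged numbers, added after the data were seen, gave 23. In progenitors the 1 call became 8 with DESeq2, 2 with RLE size factors, 2 with no minimum count and 16 with exchanged numbers. It became 0 with a mean of at least 10 counts, the replicate block, only the 2 groups fitted, summed transcripts, 1 library left out or, added after the data were seen, without both treated HFSC RNA-seq libraries. In HFSCs the 0 calls became 12 with DESeq2, 4 with no minimum count and 19 with exchanged numbers. Between HFSCs and progenitors, the 2 calls became 5 with DESeq2, 0 with the replicate block, 1 with summed transcripts, 14 with exchanged numbers and 0 to 2 with 1 library left out; in untreated cells 0 became 1 with DESeq2 and 4 with exchanged numbers, and in treated cells 2 with exchanged numbers. The cause of these shifts was not tested. For N1-AcSpd averaged, 1.2% of all genes rose in the main fit, 0.675% with the block and 4.37% with exchanged numbers. With 1 library left out 0.239% to 0.781% rose. In progenitors 1.69% rose with exchanged numbers, and in HFSCs 0.703% rose with DESeq2. Averaged over treatments, 6.14% were lower in HFSCs with exchanged numbers. Shares for the other settings are not given, so counts there cannot be set against the background. The block changed no count in Ribo-seq or translational efficiency. Leaving out a mouse gives no count, since no residual degrees of freedom remain.

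For translational efficiency an unadjusted p in place of the adjusted one gave 6 members between treated HFSCs and treated progenitors, 2 for N1-AcSpd in progenitors, 3 in HFSCs, 2 for N1-AcSpd averaged and 2 between cell types averaged. Of all genes, 7.35% had such a p for N1-AcSpd averaged and 6.01% between cell types averaged. For the other comparisons that share is not given, so their counts cannot be read as a result about the members. The median between cell types averaged was -0.10, and became -0.0529 with DESeq2, -0.0838 with RLE size factors, -0.0877 with no minimum count, 0.10 with a mean of at least 10 counts, -0.10 with the replicate block, -0.0284 with summed transcripts, -0.0802 with the transcript of most RNA-seq counts and -0.11 with exchanged numbers. In untreated cells it was -0.19 and became -0.0448 with a mean of at least 10 counts.

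With 1 library or 1 mouse left out, medians of the members for N1-AcSpd ranged in RNA-seq from 0.42 to 0.52 averaged, 0.33 to 0.54 in progenitors and 0.37 to 0.59 in HFSCs, and in Ribo-seq from 0.29 to 1.02, 0.11 to 0.80 and 0.58 to 1.08. For HFSCs against progenitors they ranged in RNA-seq from -0.24 to -0.11 averaged, -0.29 to -0.13 untreated and -0.25 to -0.0305 treated, and in Ribo-seq from -0.48 to 0.0377, -0.44 to -0.0463 and -0.27 to 0.25. For translational efficiency they ranged from -0.16 to 0.64, -0.21 to 0.44 and 0.0533 to 0.86 for N1-AcSpd, and from -0.26 to 0.24, -0.44 to 0.00277 and -0.13 to 0.19 for cell types. Values near 0 changed sign there: Srebf1 ranged from -0.0388 to 0.0543 between cell types and from -0.0236 to 0.0694 with N1-AcSpd, Srebf2 from -0.0410 to 0.0384 between cell types and from -0.0217 to 0.57 in translational efficiency with N1-AcSpd. Scap between cell types ranged from -2.74 to 0.13 in Ribo-seq and from -2.69 to 0.21 in translational efficiency, without replicate 2 and without replicate 1 in turn. Ribo-seq depth, at most 268052 counts, limits the footprint results.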

Other observations

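Between HFSCs and progenitors, averaged over treatments, 14 of 15 fatty acid oxidation genes had a positive log2 fold change in RNA-seq (median 0.08) and 1 passed, whereas 7 of 8 mevalonate arm and 10 of 11 sterol arm values were negative (medians -0.24 and -0.23). Of the 12 genes of sterol storage, export and LXR response 1 passed as higher and 1 as lower in HFSCs.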
